A study of Mus musculus with 12 samples.

Results

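The genes described here are 10 regulators of blood stem cells and early progenitors: Kit, Flt3, Cd34, Sox4, Meis1, Hoxa9, Myb, Myc, Gata2 and Nkx2-3. They were taken as every probe set of the deposited array table whose platform gene symbol is one of these names, which gave 26 of 45101 probe sets. Of these, 22 passed the filter on dim signal, among 21363 of the whole table, and each of the 10 genes kept at least 1. Sox4 has 8 probe sets (6 tested), Myb and Meis1 have 3 each (all tested), Nkx2-3 has 3 (1 tested), Kit, Hoxa9 and Gata2 have 2 each (all tested), and Flt3, Cd34 and Myc have 1 each.

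The series holds 12 one-colour Affymetrix Mouse430_2 arrays of mouse RNA in 4 groups of 3: knockout treated, knockout untreated, control treated and control untreated. Knockout mice lacked both Stat5a and Stat5b in blood cells, and control mice carried them. The series title concerns granulocyte formation under GM-CSF, a cytokine whose receptor signals through the STAT5 proteins. The labels give the treatment as with or without "GMP", letters that also stand in the titles of untreated arrays, so the agent, its dose, its duration and the sorted cells are not settled by the labels and only the word treatment is used. Strain, age, the driver of any Cre and whether samples were separate or pooled animals are not given in the sources used here, so p-values measure the spread between these samples, which may be technical. Each of 3 array dates holds 1 array of every group, and all comparisons are paired by date. One title, that of the date 2 array of knockout treated cells, has a number tag that differs from the tag shared by the 3 companions of its date.

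These genes act at successive points of one system. Kit and Flt3 are receptor tyrosine kinases that bind stem cell factor and FLT3 ligand and keep early progenitors alive and dividing, and Cd34 is a sialomucin of their surface. Meis1 and Hoxa9 encode homeodomain proteins that bind DNA together and hold progenitors in an immature state, Myb and Gata2 are needed for the formation and upkeep of progenitors, Sox4 is an HMG-box factor of early lymphoid and myeloid cells, and Myc drives growth and ribosome production. Nkx2-3 is a homeodomain factor known best from the vessels of spleen and gut. In myeloid differentiation most of these genes are turned down.

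The results turn most on Sox4 and Myb. The 250 bases before the start of each gene are shown 5′ to 3′ on the gene's strand, from RefSeq on GRCm38.p6, because these genes held every called member probe set. Of the 10 genes, 9 had an entry, and Myc did not. Capitals mark the CCAAT box in Sox4, in either orientation, and the E2F-type motif TTTGGCGGG in Myb. Sox4 lies at chr13:28953700-28953949 and Myb at chr10:21160985-21161234, both on the minus strand.
Sox4: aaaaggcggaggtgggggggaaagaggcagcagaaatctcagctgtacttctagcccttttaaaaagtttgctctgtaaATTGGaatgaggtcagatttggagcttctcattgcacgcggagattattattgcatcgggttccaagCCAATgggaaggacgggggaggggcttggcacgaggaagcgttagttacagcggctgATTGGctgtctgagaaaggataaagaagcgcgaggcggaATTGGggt
Myb: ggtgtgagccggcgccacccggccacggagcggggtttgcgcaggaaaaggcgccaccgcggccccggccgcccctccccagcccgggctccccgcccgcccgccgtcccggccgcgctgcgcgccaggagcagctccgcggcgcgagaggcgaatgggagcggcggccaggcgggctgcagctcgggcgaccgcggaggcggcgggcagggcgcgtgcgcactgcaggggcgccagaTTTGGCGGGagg
Sox4 held 4 CCAAT boxes, at 171, 104, 47 and 8 bases before its start, and 33.8% of 32851 promoter windows of this length held at least 1 on either strand. Myb held 1 E2F-type motif at 12 bases before its start, a match found in 0.18% of the windows. Both motifs were picked after the sequences had been seen. The STAT5 motif TTCNNNGAA, present in 7.02% of windows, the MYC E-box CACGTG, in 6.02%, and the MEIS motif TGACAG, in 15.9%, had no match in the 11 windows of these 9 genes, with both strands searched. Kit and Gata2 have 2 windows each. No marked motif overlaps another in the Sox4 and Myb windows shown.

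The arrays of date 2 differed from the others in RNA integrity, and several member sets differed in signal on that date. The signal of the 3′ probe set over the 5′ probe set of one transcript, a measure of RNA integrity that rises with degradation, lay on date 2 at 20.8 to 266 (Actb) and at 28.2 to 80.7 (Gapdh), against 1.14 to 2.05 and 1.56 to 3.90 on the other dates. Date 2 minus the other dates was -1.97 on the log2 scale for Myb 1422734_a_at, -1.14 for Myb 1450194_a_at, -1.72 and -1.09 for the 2 Kit sets, -1.60 for Cd34 and -1.71 for Sox4 1449370_at. It was 1.51 for Flt3, 1.27 for Sox4 1455867_at and 1.25 for Meis1 1459423_at. Other sets differed little, with 0.05 for Sox4 1433575_at, -0.05 for Meis1 1450992_a_at, -0.08 for Gata2 1428816_a_at and 0.16 for Hoxa9 1455626_at. Whether RNA integrity set these shifts was not tested. Over all tested sets the quartiles of this difference were -0.70, -0.04 and 0.52. Stat5a gave signals of 26.7 to 101 on the 6 knockout arrays, against 375 to 1147 on the 6 control arrays, and Stat5b gave 1.80 to 60.5 against 287 to 1531. The granulocyte-macrophage progenitor markers Mpo and Elane, which encode granule enzymes, lay at 15309 to 111812 and at 6216 to 21545 over the 12 arrays.

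With treatment 1 of 6 tested Sox4 probe sets fell in both genotypes and 1 of 3 Myb probe sets fell in knockout cells, and no probe set of the 10 genes rose past the threshold, an adjusted p of 0.05 (limma, Benjamini-Hochberg over all tested probe sets). Both are dim sets of their genes. In the fit with 1 probe set per gene, which uses brighter sets, neither Sox4 nor Myb was called: for Sox4 1433575_at the adjusted p was 0.222 in knockout and 0.0523 in control cells, and for Myb 1450194_a_at it was 0.0734 and 0.117 (limma). In knockout cells 2 of 22 probe sets were called, 9.09%, both downward, where the share of all tested probe sets was 8.66% in either direction and 2.89% downward. In control cells 1 of 22 was called, 4.55%, also downward, where the share was 4.70% in either direction and 1.54% downward. The shares in either direction were thus near those of the whole table. Without date 2 the counts were 2 in knockout and 3 in control cells (limma). Without date 1 they were 0 and 1, and without date 3 both were 0. The calls over all 21363 tested sets moved as well, from 1849 in knockout and 1004 in control cells. They numbered 1975 and 1418 without date 2, 238 and 93 without date 1, and 107 and 36 without date 3. At an unadjusted p under 0.05 there were 7 member sets in knockout cells, 31.8% against 24.9% of all sets, and all 7 were lower. In control cells there were 8, 36.4% against 20.8% of all sets, with 7 lower and 1 higher. The median log2 difference over the 22 sets was -0.55 in knockout cells and -0.32 in control cells, beside 0.01 and -0.01 over all tested sets. Of the 22 differences, 17 were below 0 in knockout cells and 15 in control cells. Several sets stand for one gene and some passed the filter only through the groups where they were brighter, so these shares are descriptions. In RNA from many cells, fewer cells of a type and less RNA per cell cannot be told apart.

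**Figure D1:**
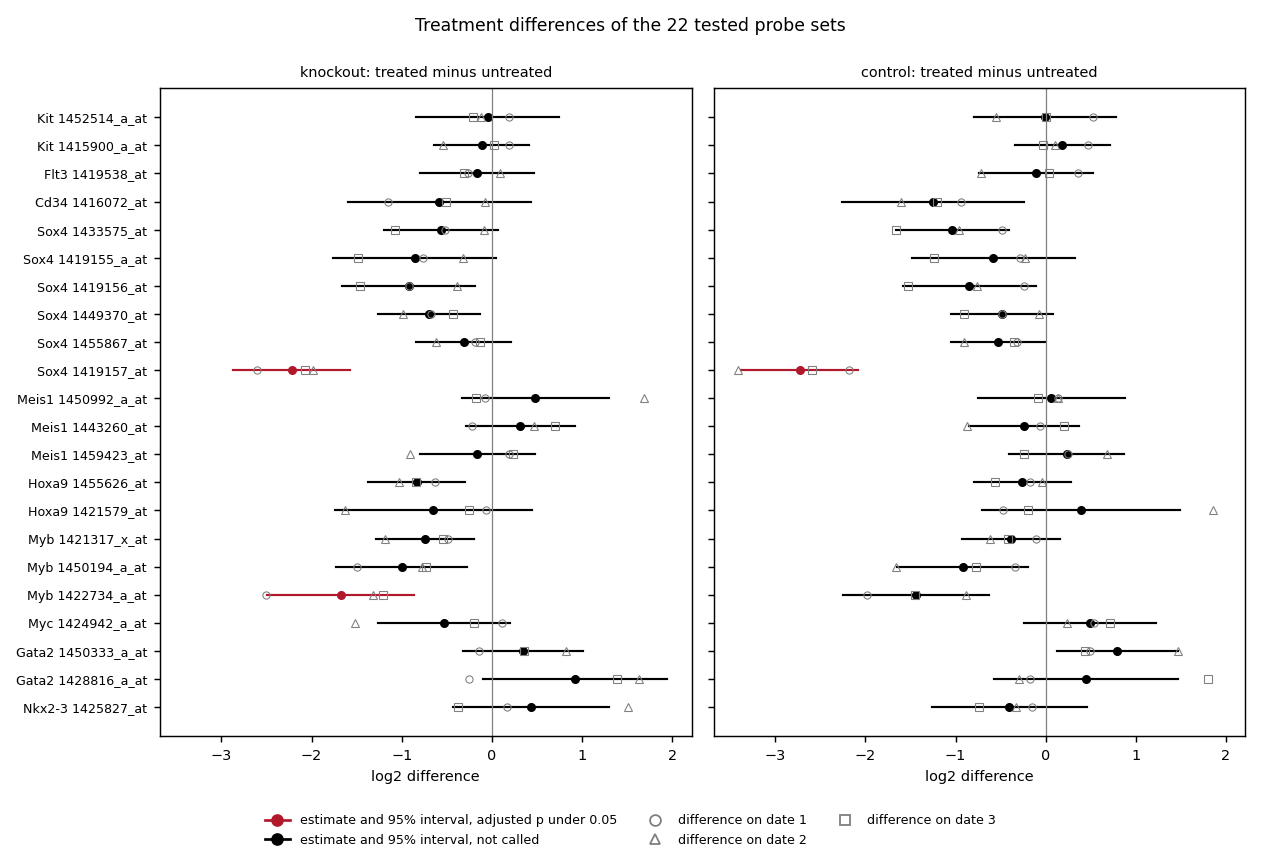
Treated minus untreated on the log2(signal + 13) scale for each tested probe set, in knockout cells (left) and control cells (right). Filled points are limma estimates with 95% intervals, red where the adjusted p was under 0.05, and open symbols are the differences on dates 1 to 3. Sox4 1419157_at lies lowest in both panels, at -2.22 and -2.73, and all 6 Sox4 and all 3 Myb sets lie below 0 in both.

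Sox4 showed the largest difference of the 10 genes, at its probe set 1419157_at. The signal was 51.0, 35.1 and 51.3 on the knockout treated arrays of dates 1 to 3, against 377, 177 and 258 on the knockout untreated arrays. It was 68.4, 7.79 and 43.9 on the control treated arrays, against 356, 209 and 330 on the control untreated arrays. Every treated array lay below every untreated array. The difference was -2.22 ± 0.29 on the log2 scale in knockout cells (SE, limma adjusted p = 0.00258), a 4.66-fold decrease. In control cells it was -2.73 ± 0.29 (limma adjusted p = 0.00125), a 6.63-fold decrease. This set passed the filter only through its 6 untreated arrays, since all 6 treated values were under the filter's 70.5. Its fold changes depend on the constant added before the log, with -2.49 in knockout and -3.27 in control cells for a constant of 1, and -1.70 and -1.99 for a constant of 50. With no filter the adjusted p was 0.00549 in knockout and 0.00286 in control cells (limma). Without the arrays of date 2 the differences were -2.34 and -2.39 (limma adjusted p = 0.00351 and 0.00372).

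The other 5 tested Sox4 probe sets lay below 0 in both comparisons and did not pass the threshold. The brightest, 1433575_at, had signals of 4008, 4094 and 1953 on the knockout treated arrays, against 5773, 4347 and 4127 on the knockout untreated arrays. On the control arrays it had 4820, 2777 and 1681 with treatment, against 6757, 5408 and 5333 without. The treated arrays lay below the untreated ones in either genotype. The log2 difference was -0.56 ± 0.28 in knockout cells (limma adjusted p = 0.252) and -1.03 ± 0.28 in control cells (limma adjusted p = 0.0667). For the remaining 4 sets it ranged over -0.31 for 1455867_at to -0.92 for 1419156_at in knockout cells and over -0.48 for 1449370_at to -0.84 for 1419156_at in control cells. Sets of one gene may read different ends or forms of its transcript. Over the 12 arrays, after each date's mean was removed, the correlations among the 6 sets were between -0.05 and 0.93 in 15 pairs. The 2 untested sets, 1458332_x_at and 1443778_at, had signals no higher than 99.4 on any array.

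Myb, whose product keeps progenitors dividing, fell in knockout cells at its dimmest probe set, 1422734_a_at. That set had signals of 356, 207 and 786 on the knockout treated arrays, against 2076, 537 and 1830 on the knockout untreated arrays. It had 846, 211 and 868 on the control treated arrays, against 3377, 401 and 2386 on the control untreated arrays. The treated array was the lower on each of the 3 dates in both genotypes, while the groups overlapped, with date 2 the dimmest of each. The log2 difference was -1.68 ± 0.37 in knockout cells (limma adjusted p = 0.0221), a 3.20-fold decrease. In control cells it was -1.44 ± 0.37 (limma adjusted p = 0.0540), which missed the threshold. Without date 2 both passed, at -1.85 (limma adjusted p = 0.0305) in knockout and -1.71 (limma adjusted p = 0.0430) in control cells. The knockout call was lost without the date block (limma adjusted p = 0.476), without date 1 (0.137), without date 3 (0.182) and in the fit of the 2 knockout groups alone (0.0504). It was also lost in 4 of the fits that left out 1 array, those of date 1 of knockout treated cells (0.0568) and of any date of knockout untreated cells (0.0649 to 0.0797).

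The brighter Myb sets moved to the same side. Probe set 1450194_a_at had 4203, 3067 and 8745 on the knockout treated arrays, against 11917, 5252 and 14500 on the knockout untreated arrays. The control treated arrays had 11260, 2998 and 8198, against 14220, 9479 and 13983 on the control untreated arrays. Its treated array was again the lower on every date, by -1.0 ± 0.33 in knockout cells and -0.92 ± 0.33 in control cells on the log2 scale (limma adjusted p = 0.0866 and 0.138). Probe set 1421317_x_at, whose suffix marks possible cross-hybridization, had 8682, 8033 and 9737 on the knockout treated arrays, against 12161, 18336 and 14214 on the knockout untreated arrays. These 2 groups did not overlap, and the log2 difference was -0.74 ± 0.24 (limma adjusted p = 0.0910). In control cells the difference was -0.38 ± 0.24. The correlations among the 3 sets over the date-centred arrays were 0.69 to 0.84.

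**Figure D2:**
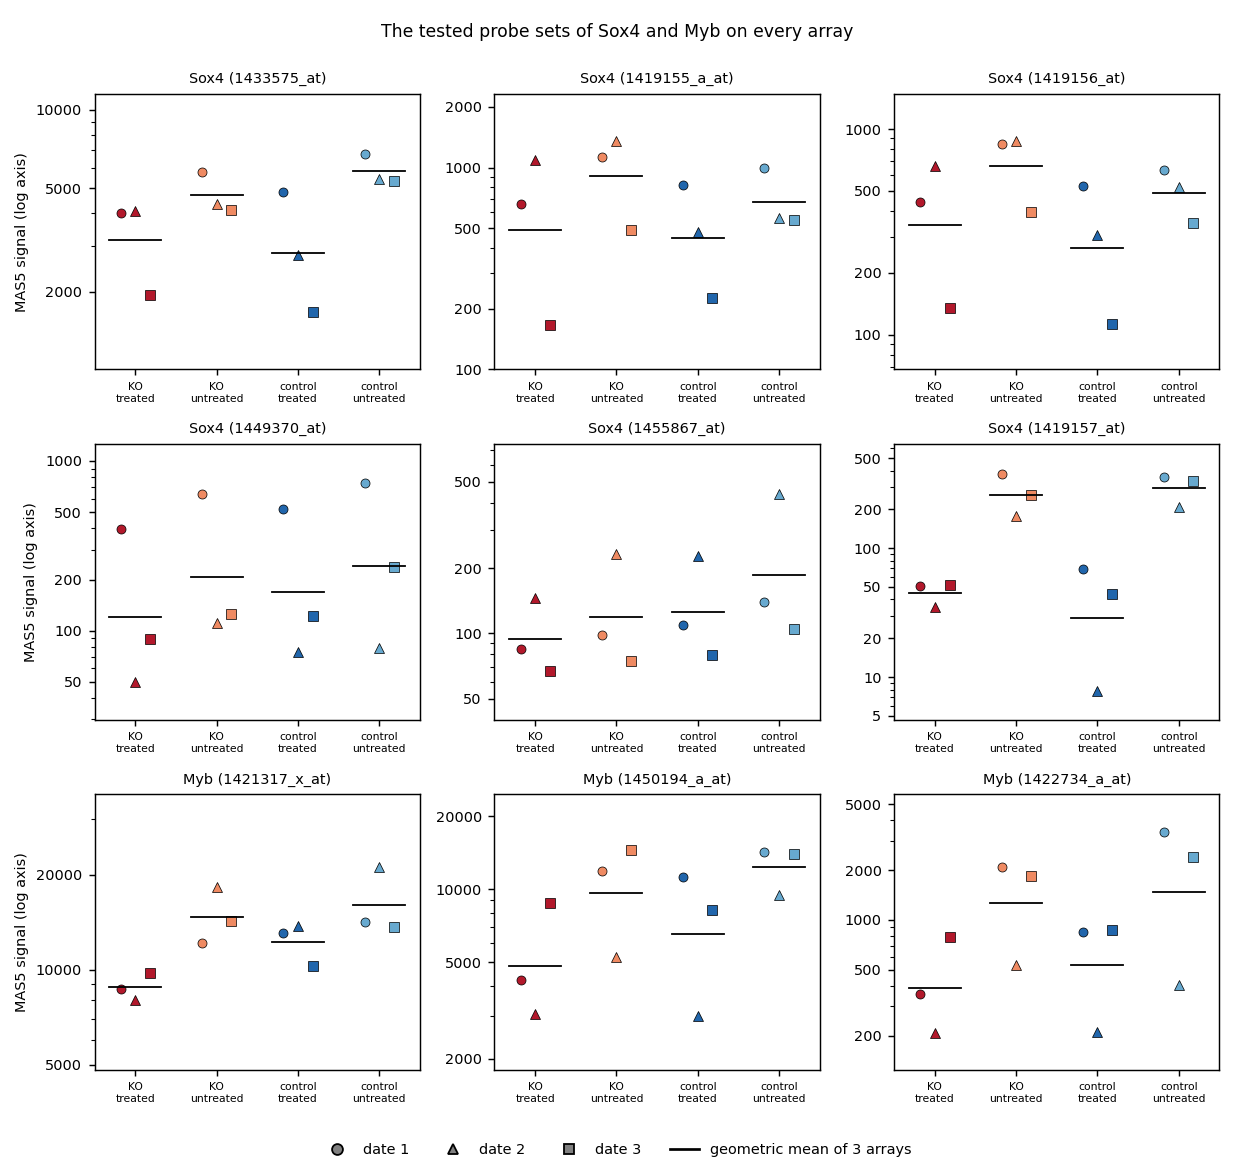
MAS5 signal on a log axis for the 6 tested Sox4 and the 3 Myb probe sets. Each symbol is 1 array (circle, triangle and square for dates 1, 2 and 3), and lines are geometric means of 3 arrays. The treated arrays of Sox4 1419157_at, at 7.79 to 68.4, all lie below the untreated ones, at 177 to 377, and for Myb 1422734_a_at the date 2 triangles are the lowest of each group.

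Among the surface genes, Cd34 had lower mean signals with treatment. It had 3730, 3040 and 3863 on the knockout treated arrays, against 8313, 3213 and 5515 on the knockout untreated arrays. On the control arrays it had 4321, 491 and 2697 with treatment, against 8303, 1524 and 6225 without. The treated value was lower on each date in both genotypes. The log2 difference was -0.58 ± 0.46 in knockout cells (limma adjusted p = 0.473) and -1.25 ± 0.46 in control cells (limma adjusted p = 0.149). Without date 2 the control difference was -1.07 ± 0.25 and passed the threshold (limma adjusted p = 0.0486), and that in knockout cells was -0.83 ± 0.25 (limma adjusted p = 0.0792).

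The receptor gene Kit stayed within its spread. Its brighter set, 1452514_a_at, had 3492, 1259 and 2256 on the knockout treated arrays, against 3066, 1365 and 2613 on the knockout untreated arrays. The control treated arrays had 5457, 623 and 3353, against 3789, 917 and 3353 on the control untreated arrays. The dates differed more than the groups, and the log2 differences with treatment were -0.05 ± 0.36 in knockout and -0.01 ± 0.36 in control cells, with a 95% interval of -0.80 to 0.78 in control cells. The dimmer set, 1415900_a_at, differed by -0.11 ± 0.24 and 0.18 ± 0.24.

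Flt3, a receptor gene of early progenitors, had 428, 1099 and 166 on the knockout treated arrays, against 518, 1032 and 209 on the knockout untreated arrays. The control treated arrays had 636, 557 and 160, against 495, 925 and 155 on the control untreated arrays. The groups overlapped throughout, and date 3 was the lowest in each of them. The log2 differences were -0.16 ± 0.29 in knockout and -0.11 ± 0.29 in control cells.

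**Figure D3:**
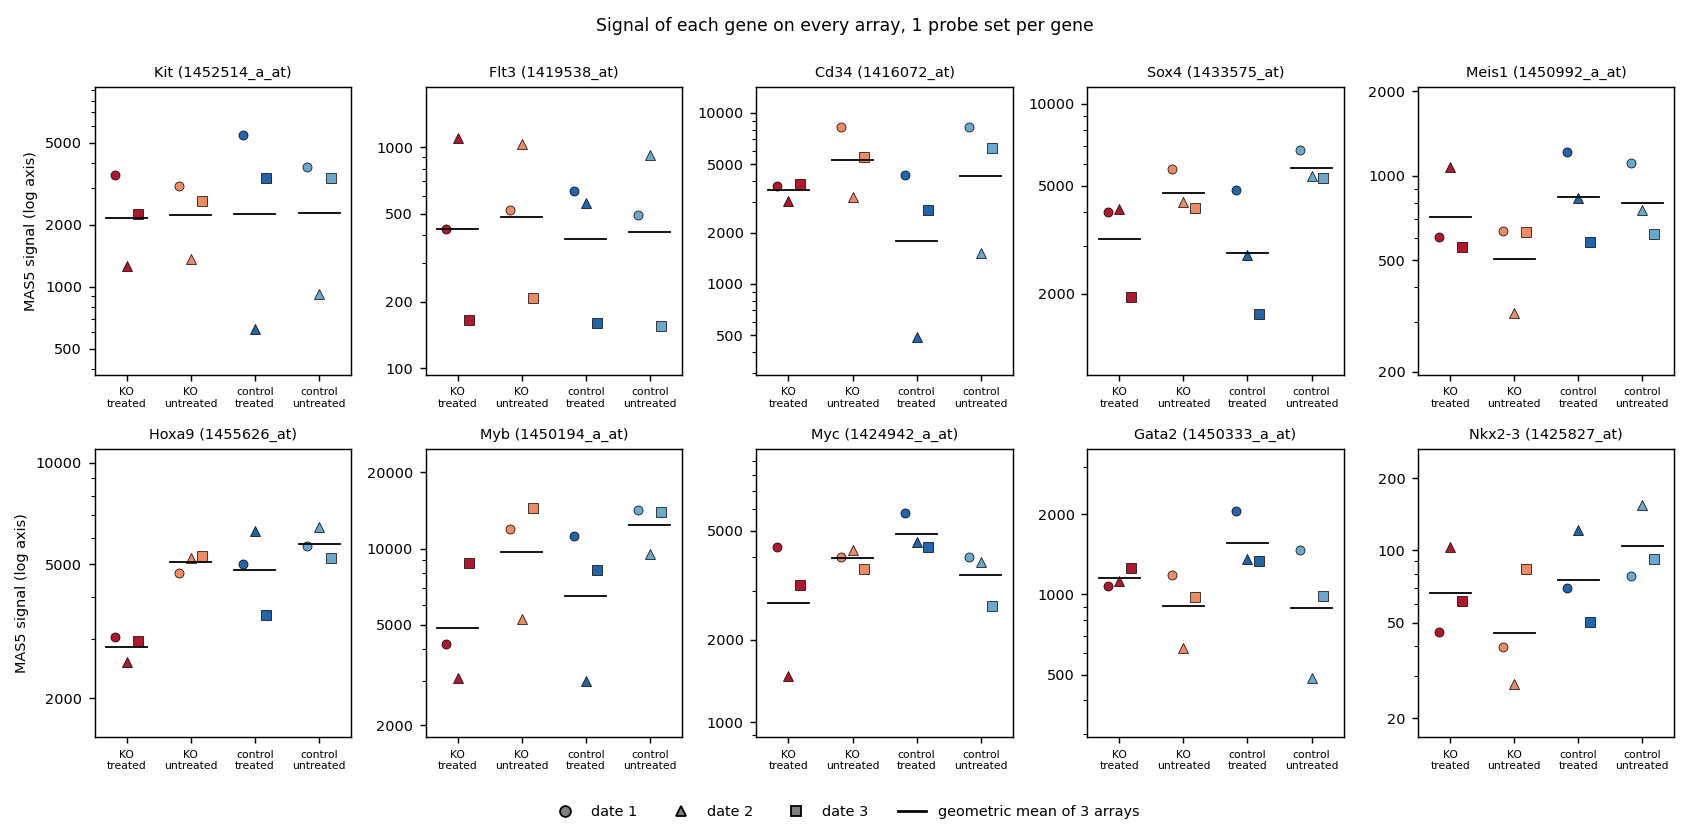
MAS5 signal on a log axis for the 10 genes, with 1 probe set each, the brightest tested one that is not marked as cross-hybridizing. Symbols are single arrays by date and lines are geometric means of 3 arrays in knockout treated, knockout untreated, control treated and control untreated cells. Hoxa9 and Myc have knockout treated values, at 2561 to 3037 and 1474 to 4346, that lie below every control treated value, and Kit and Flt3 spread more by date than by group.

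The homeobox gene Hoxa9 was lowest in knockout treated cells. Its probe set 1455626_at had 3037, 2561 and 2951 on those arrays, against 4722, 5233 and 5292 on the knockout untreated arrays. The control treated arrays had 5025, 6265 and 3536, against 5668, 6451 and 5225 on the control untreated arrays. The 3 knockout treated arrays lay below the other 9. The treatment difference was -0.83 ± 0.24 in knockout cells (limma adjusted p = 0.0614), which missed the threshold, and -0.26 ± 0.24 in control cells (limma adjusted p = 0.597). With 1 probe set per gene the knockout value passed (limma adjusted p = 0.0469). The difference between the 2 responses was -0.57 ± 0.34 (limma adjusted p = 1.0). The dim second set, 1421579_at, differed by -0.65 ± 0.49 in knockout and 0.39 ± 0.49 in control cells.

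Meis1, the DNA-binding partner of HOXA9, did not move past its spread. Its set 1450992_a_at had 603, 1075 and 556 on the knockout treated arrays, against 635, 326 and 631 on the knockout untreated arrays. It had 1218, 835 and 583 on the control treated arrays, against 1107, 756 and 620 on the control untreated arrays. The groups overlapped, and the array of date 2 set the knockout difference of 0.48 ± 0.37, with 1.68 on that date beside -0.07 and -0.18 on the others. In control cells the difference was 0.06 ± 0.37. The other 2 sets had differences of 0.32 and -0.16 in knockout and of -0.24 and 0.23 in control cells, and the 3 sets correlated with one another between -0.64 and 0.45.

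The zinc finger gene Gata2 had higher means with treatment at both sets, without a call. For 1450333_a_at the signals were 1075, 1123 and 1257 on the knockout treated arrays, against 1184, 630 and 981 on the knockout untreated arrays. The control treated arrays had 2060, 1363 and 1336, against 1462, 486 and 987 on the control untreated arrays. The control treated array was the higher on each date, with a log2 difference of 0.80 ± 0.30 (limma adjusted p = 0.166), against 0.35 ± 0.30 in knockout cells. For 1428816_a_at the difference was 0.92 ± 0.46 in knockout and 0.45 ± 0.46 in control cells, and in each genotype at least 1 date had the opposite sign.

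Myc had values of opposite sign in the 2 genotypes in the fit of all dates, and the knockout value rested largely on date 2. Its signals were 4346, 1474 and 3173 on the knockout treated arrays, against 4006, 4252 and 3637 on the knockout untreated arrays. They were 5813, 4527 and 4365 on the control treated arrays, against 4008, 3852 and 2659 on the control untreated arrays. The control treated arrays were above all control untreated ones, while the knockout treated arrays overlapped the knockout untreated ones. The treatment difference was -0.53 ± 0.33 in knockout cells (limma adjusted p = 0.352) and 0.49 ± 0.33 in control cells (limma adjusted p = 0.438), and neither passed. The difference between the responses was -1.03 ± 0.47 (limma unadjusted p = 0.0519, adjusted p = 1.0), with the same sign on each date. The knockout treated value of date 2 was the lowest Myc signal of all 12 arrays. Without date 2 the treatment difference was -0.04 ± 0.21 in knockout cells and 0.62 ± 0.21 in control cells (limma adjusted p = 0.921 and 0.127). The difference between the responses was then -0.66 ± 0.30 (limma adjusted p = 1.0).

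Nkx2-3 was dim everywhere. Its tested set, 1425827_at, had 45.9, 104 and 61.4 on the knockout treated arrays, against 39.5, 27.8 and 83.6 on the knockout untreated arrays. It had 69.5, 121 and 50.2 on the control treated arrays, against 78.4, 155 and 92.2 on the control untreated arrays. The groups overlapped, with log2 treatment differences of 0.43 ± 0.39 in knockout cells and -0.40 ± 0.39 in control cells.

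Loss of Stat5a and Stat5b was not followed by a called difference in any of the 10 genes. Between knockout treated and control treated cells 0 of 22 member sets were called (limma), where 0.0609% of all sets were, 13 in number. At an unadjusted p under 0.05 there were 3 member sets, both Hoxa9 sets and Myc, 13.6% against 8.46% of all sets, each lower in knockout. Between knockout untreated and control untreated cells 0 of 22 were called, where 0.00936% of all sets were, 2 in number. The 3 at an unadjusted p under 0.05 were Meis1 1443260_at, Nkx2-3 1425827_at and Sox4 1455867_at, again 13.6% and lower in knockout, against 2.43% of all sets. The median difference over the 22 sets was -0.29 with treatment and -0.17 without, beside -0.01 and -0.03 over all sets. Over all tested sets the 95% interval, with no adjustment for the number of sets, reached a median of 0.684 to either side on the log2 scale. The reach differs between sets, so only for a set of typical spread was a difference smaller than this not resolved. A call after adjustment takes a larger difference still. Larger differences of single member sets, given below, were not called either.

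Hoxa9 1455626_at was lower in knockout treated than in control treated cells by -0.76 ± 0.24 on the log2 scale (limma adjusted p = 0.584), and these groups, given above, did not overlap. Myc was lower by -0.83 ± 0.33 (limma adjusted p = 0.584), also with no overlap. Groups that did not overlap were also seen for Myb 1421317_x_at, at -0.48 ± 0.24, and Gata2 1450333_a_at, at -0.43 ± 0.30. In untreated cells all 4 sets had overlapping groups, with differences of -0.18 ± 0.24, 0.20 ± 0.33, -0.12 ± 0.24 and 0.02 ± 0.30. The share of all tested sets whose groups did not overlap was not computed. The lack of overlap is therefore only a description of these sets. Meis1 1443260_at had 337, 414 and 192 on the knockout untreated arrays, against 448, 1073 and 385 on the control untreated arrays, a difference of -0.90 ± 0.27 (limma adjusted p = 1.0) with the knockout array lower on each date. With treatment the Meis1 set had 288, 579 and 319 in knockout cells, against 430, 580 and 446 in control cells.

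Whether treatment acted differently in the 2 genotypes was tested as the difference of the responses. None of the 22 sets, and 0% of all tested sets, passed (limma), and at an unadjusted p under 0.05 there were 0 member sets, against 2.57% of all sets. The median over the 22 sets was -0.08, beside 0.03 over all sets, with 14 below 0. For Sox4 1419157_at it was 0.51 ± 0.41 and for Myb 1422734_a_at -0.24 ± 0.52. Over all tested sets the 95% interval of such a difference reached a median of 0.967 to either side. A call in 1 genotype and not in the other therefore does not show that the genotypes differ.

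**Figure D4:**
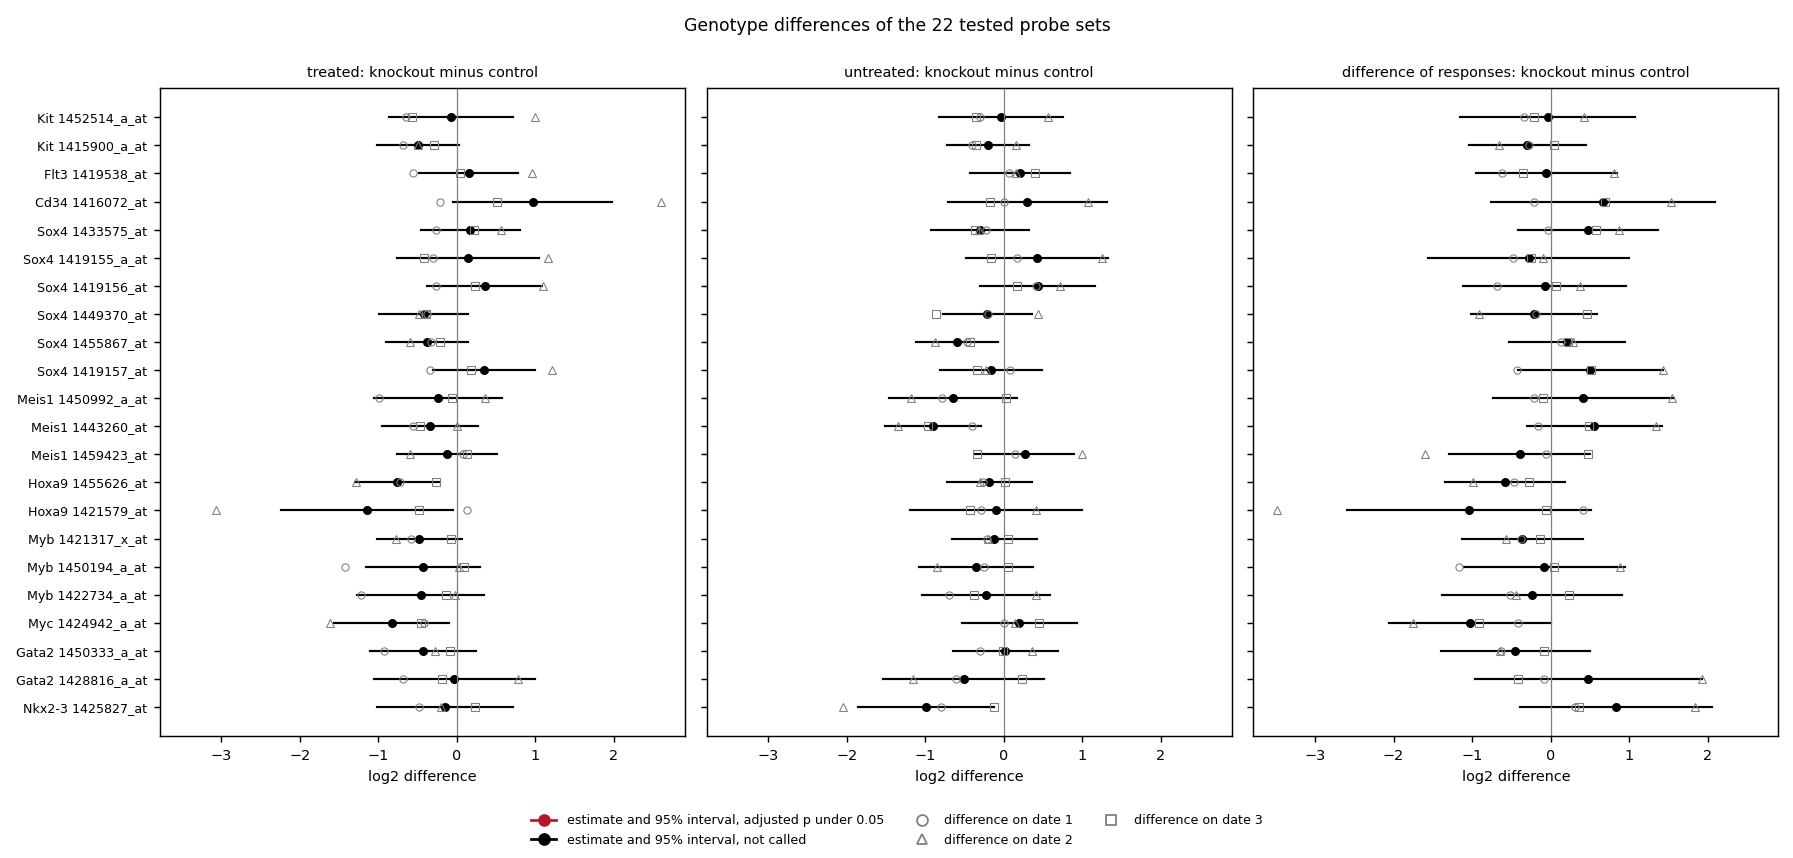
Knockout minus control on the log2(signal + 13) scale in treated cells (left) and untreated cells (middle), and the difference of the treatment responses (right), for the 22 tested probe sets. Points are limma estimates with 95% intervals and open symbols are the differences on the 3 dates. No set was called, and Hoxa9 and Myc lie at -0.76 and -0.83 in treated cells.

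Genes that work with these regulators were followed with 1 probe set each. Of all 11815 genes, 9.32% were called with treatment in knockout cells and 5.16% in control cells. Among 24 tested MYC target genes of growth and ribosome production, 5 fell in knockout cells and 0 in control cells, and none rose. They were the pyrimidine synthesis gene Cad (-1.64 ± 0.27), the spermidine synthase gene Srm (-1.46 ± 0.32), the pseudouridine synthase gene Dkc1 (-1.18 ± 0.23), the growth regulator Pa2g4 (-1.07 ± 0.28) and the DNA repair gene Apex1 (-1.04 ± 0.25). In control cells these 5 differed, in that order, by -1.05, -0.32, -0.48, -0.62 and -0.70. The list's median was -0.66 in knockout and -0.46 in control cells, beside -0.02 and -0.04 over all genes. The difference of the responses was called for none of the 24. Without date 2, where 9.72% of all genes were called in knockout and 7.36% in control cells, 3 MYC target genes fell in knockout cells (Cad, Dkc1 and Polr1b) and 0 in control cells, with medians of -0.43 and -0.42. Of 13 MYC network partners, Mxd1, which competes with MYC for MAX, rose in knockout cells by 1.67 ± 0.34. Its control difference, 1.26 ± 0.34, was not called (limma adjusted p = 0.0645). Without date 2 it rose in both genotypes.

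The KIT and FLT3 signalling partners had 14 tested genes, of which 2 rose in each genotype and none fell. The Src-family kinase gene Fyn rose by 3.02 ± 0.32 in knockout cells and 2.24 ± 0.32 in control cells. Sh2b3, an adaptor that damps receptor signalling, rose by 2.16 ± 0.29 and 1.57 ± 0.29. Without date 2, 4 rose in knockout cells, with Ptpn6 and Cbl added, and 2 in control cells. Of 10 HOX genes and cofactors none was called in either genotype. Of 25 other stem cell transcription factors 2 rose in knockout cells, Gfi1b (2.62 ± 0.68) and Ikzf2 (1.11 ± 0.29), and 0 were called in control cells. The control differences were 1.18 ± 0.68 for Gfi1b and 1.11 ± 0.29 for Ikzf2 (limma adjusted p = 0.367 and 0.0576). Without date 2 the counts were 1 (Gfi1b) in knockout and 2 (both) in control cells. Of 14 surface genes of stem cells and progenitors Procr rose in knockout cells (2.69 ± 0.56), and in control cells Thy1 rose (1.47 ± 0.33) and Cd48 fell (-1.14 ± 0.27). In the other genotype, without a call, Procr differed by 1.46 ± 0.56, Thy1 by -0.38 ± 0.33 and Cd48 by -0.71 ± 0.27. Without date 2 none of the 14 was called in control cells, and in knockout cells Procr rose and Cd27 and Prom1 fell.

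Markers of other cell types moved with the same treatment. Of 12 tested monocyte, macrophage and dendritic cell markers 4 rose in each genotype. Cd14 rose by 3.47 ± 0.46 in knockout and 2.63 ± 0.46 in control cells, Cd74 by 1.30 ± 0.35 and 1.83 ± 0.35, and Flt1 by 1.74 ± 0.47 and 2.33 ± 0.47. Cx3cr1 rose in knockout cells by 2.22 ± 0.34, beside -0.09 ± 0.34 in control cells, and Batf3 rose in control cells by 4.55 ± 0.64, beside 0.46 ± 0.64 in knockout cells. The difference of the responses was called for neither gene (limma adjusted p = 1.0). Without date 2, 4 of the 12 again rose in each genotype. Cd14, Flt1 and Batf3 then rose in both, Cx3cr1 in knockout cells only and Cd74 in control cells only. The summed signal of the 13 genes of that list was 27744 to 39854 in knockout treated, against 12048 to 26938 in knockout untreated cells, and 22215 to 47713 in control treated, against 11620 to 30885 in control untreated cells. The gene that weighs most in that sum is Csf1r, with a median signal of 10957 over the 12 arrays. The next highest median is 1954, for Ccr2. Csf1r was not called with treatment in either genotype. Cd14, which was called, had a mean signal of 8526 with treatment and 716 without in knockout cells. In control cells its means were 5969 and 886. The part of each gene in the higher sums was not computed. Of 14 progenitor markers Csf2rb rose in both genotypes, by 1.51 ± 0.29 and 1.66 ± 0.29, and Irf8 fell in control cells (-1.39 ± 0.32). In knockout cells Irf8 differed by -0.64 ± 0.32 without a call. No mature neutrophil marker, of 9, and no eosinophil marker, of 4, was called. Gzmb, of 6 mast cell and basophil genes, Il7r, of 6 lymphoid genes, and Vcam1, of 5 stromal and endothelial genes, rose in knockout cells, and Car1, of 10 erythroid and megakaryocyte genes, fell in control cells. In the other genotype each differed to the same side without a call. Those values were, in that order, 1.29 ± 0.41, 1.34 ± 0.93, 0.74 ± 0.69 and -0.85 ± 0.27. The summed lymphoid signal was 3610 to 6569 in knockout treated, against 8792 to 10468 in knockout untreated cells, and 2191 to 6263 in control treated, against 8364 to 9546 in control untreated cells. Most of that sum is 1 gene, Nkg7, with a median signal of 6654 over the 12 arrays, beside 472 for the next brightest, Cd79b. Nkg7 differed by -1.47 ± 0.45 in knockout and -1.42 ± 0.45 in control cells and was not called, and the median over the 6 tested lymphoid genes was 0.05 and -0.19. Without date 2 Gzmb, Il7r and Vcam1 were not called, Car1 fell in both genotypes, Siglecf fell and Car2 rose in control cells, and Irf8 was not called. Of the progenitor markers Csf2rb and Fcgr2b then rose and Gfi1 fell in both genotypes, and in knockout cells Spi1 rose and Ms4a3 fell. Summed mast cell and basophil signal was 4484 to 12165 in knockout treated, against 7731 to 12464 in knockout untreated cells, and 5775 to 13020 in control treated, against 10599 to 12502 in control untreated cells. The mast cell protease genes Cma1, Tpsab1, Tpsb2 and Mcpt1 did not pass the filter on dim signal. The part of a changed cell mixture in the values of Sox4 and Myb was not tested.

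The genes most like each member over the 12 arrays, after the mean of each date was removed, were taken as the 2 with the highest Pearson correlation, as a description of arrays that share groups and scaling. Hoxa9 was closest to Snhg5 (r = 0.995) and Wdr43 (0.982), Cd34 to Dpagt1 (0.989) and Cog4 (0.984), and Myb 1450194_a_at to Xrcc5 and 0610030E20Rik (0.971 and 0.970). Sox4 1433575_at was closest to Frmd4b (0.963) and Car1 (0.961), Gata2 to Nrip1 and Osbpl11 (0.971 and 0.969), and Kit to Btaf1 (0.958) and Gatad2a (0.952). Meis1 was closest to Slc12a7 (0.956) and Zfp229 (0.951), and Myc to Anxa2 (0.951) and Mrps31 (0.944). Flt3 was closest to Cryzl1 (0.935) and Laptm4b (0.934), and Nkx2-3 to Iqsec2 (0.933) and Sorbs3 (0.930). None of the 10 genes was among the closest of another.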

How the data were processed

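Per the submitters' processing notes, the authors used MAS5, and the deposited values are linear intensity values of 45101 probe sets on 12 arrays. The version and any masking are not given in the sources used here. The mean signal of each array, with 2% trimmed at either end, was 500.003 to 500.004, which shows a scaling of every array to one mean. Dim values are unstable because MAS5 subtracts mismatch signal, and precision is limited by the number of arrays.

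Gene names came from the platform annotation, only sets with 1 gene symbol were used, and all 26 member sets matched a current RefSeq gene of the same symbol. Sets were tested where at least 3 arrays had a signal above 70.5, the median over the whole table. limma 3.58.1 in R 4.3.3 fitted log2(signal + 13) over the 4 groups with date as a block (6 residual and 4.21 prior degrees of freedom), with Benjamini-Hochberg adjustment over 21363 sets and a threshold of 0.05. The constant lies near the 20th percentile of the values (12.8), and folds of dim sets are understated. The code was tested on simulated data. In gene lists each gene is its set of highest mean log2 value, and a set with a cross-hybridization suffix was used where nothing else passed.

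The labels' titles give the dates. Deviations from group means correlated at 0.37 to 0.75 in 18 pairs of arrays of one date, against -0.68 to 0.43 in 36 pairs of different dates. The members and all gene lists were chosen with earlier results of these data known. Named genes are all members, of each list up to 4 called genes with the largest change in a comparison, and the 2 nearest in correlation to each member. For the MYC target genes 1 more called gene, Apex1, is named after its value was seen, as are Nkg7, Cd79b, Csf1r, Ccr2 and the genes called without date 2. Python 3.11.15 with matplotlib 3.10.9 drew the figures. Alternatives tried were the block, each date and each array left out, the constant, the filter, quantile normalization, the groups in the fit, array weights and 1 set per gene. List counts without date 2 were added after seeing the data.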

Additional observations from a re-analysis of the deposited data

How the results depend on the processing

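Set against the reported fit, the values of single probe sets under the alternatives passed the threshold anew in 22 comparisons, lost it in 11 and turned a called direction in 0. In 108 others a value with no call moved by more than its standard error, and in 2402 neither occurred. The Sox4 1419157_at call was kept in 22 of 23 alternatives in control cells, with -3.27 to -1.99, and in 21 of 23 in knockout cells, with -2.49 to -1.70. It was lost in control cells without date 3 (limma adjusted p = 0.0847). In knockout cells it was lost without date 1 (limma adjusted p = 0.0621) and without date 3 (0.0844). All fits without a date hold fewer arrays, and without date 2 the call was kept in both genotypes. The Myb 1422734_a_at call in knockout cells was kept in 15 of 23, with -1.97 to -1.20. These 23 leave out the fit with 1 probe set per gene, which does not use these dim sets and in which Sox4 and Myb had no call, the single knockout call being Hoxa9 1455626_at. Member sets called in knockout cells, 2 as reported, numbered 1 with no replicate block, 0 without date 1, 0 without date 3, 3 with a constant of 50, 3 with a filter at 200, 4 after quantile normalization, 1 with only the groups of the comparison, 5 with array weights and 1 with 1 probe set per gene. In control cells, 1 as reported, they numbered 3 without date 2, 0 without date 3, 3 with a constant of 50, 3 with a filter at 200, 2 after quantile normalization, 4 with array weights and 0 with 1 probe set per gene. Leaving out 1 array gave 1 to 3 in knockout cells and 1 to 2 in control cells. The other 3 comparisons had 0 member sets called (limma) in all alternatives. Over all 21363 tested probe sets the calls numbered 1849 in knockout and 1004 in control cells. They numbered 343 and 172 with no replicate block, 107 and 36 without date 3, and 238 and 93 without date 1. They were 1975 and 1418 without date 2, 3578 and 3587 with array weights, and 2262 and 1381 with a constant of 50. Quantile normalization gave 1718 and 1032, and only the groups of the comparison gave 949 and 215. The filter at 200 gave 2118 and 1280 of 15409 sets. With 1 probe set per gene there were 1321 and 800 of 11815. Leaving out 1 array gave 572 to 2550 in knockout and 264 to 1219 in control cells. The cause of these shifts was not tested. No array file gives a detection call here, so signal over background could not be judged for the dim sets.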
